A study of Mus musculus with 12 samples.

Results

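Genes named Zfp (zinc finger protein) followed by a number form one of the large gene families of the mouse. Of 20807 autosomal protein-coding genes in GENCODE release M21, 385 carry such a name, and 271 of these had at least 5 measured CpG cytosines between 2 kb upstream of the gene and its end. Those 271 are the Zfp genes described here. They hold 16628 of the 980547 cytosines on the autosomes and X (970775 autosomal) with 10 or more reads in every one of the 12 animals. Of the other 114 genes, 90 had no such cytosine. At the edge of the rule, 8 genes had 4 cytosines and were left out (Zfp120, Zfp454, Zfp474, Zfp808, Zfp872, Zfp950, Zfp952 and Zfp970), and 6 genes had 5 and were kept (Zfp27, Zfp54, Zfp750, Zfp93, Zfp954 and Zfp983).

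The methylation data came from brain tissue, a mixture of hippocampus and cortex, of 12 mice aged 11 months, profiled by reduced representation bisulfite sequencing (RRBS). RRBS cuts DNA at CCGG and reads each cytosine near a cut as methylated (C) or unmethylated (T), so the methylation level is the percentage of reads that carry C. The labels gave 4 wild-type (Wt) animals, 3 females and 1 male, and 8 Tg2576 (Tg) animals, 4 females and 4 males. Tg2576 mice are 1 transgenic line that expresses human APP with a mutation of familial Alzheimer's disease from a prion promoter, and the Wt animals lack the transgene. Cytosines were kept apart by strand, so that a CpG read on both strands counts as 2 cytosines. Total coverage, summed over all cytosines so that 1 read can count more than once, ran from 33619981 (Tg female 4) to 131446104 (Tg female 1). The library labelled Wt male had a mean X chromosome level of 19.9%, next to 20.7 to 22.98% in the animals labelled female and 5.50 to 5.67% in the Tg males. It gave 0.0696 cytosines on the Y chromosome per 1000 autosomal ones, against 0.347 to 0.503 in the Tg males. It is called the library labelled Wt male throughout, and comparisons of genotype were repeated without it.

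Most Zfp proteins bind DNA through rows of C2H2 zinc fingers, each a short fold held by a zinc ion. In many of them a KRAB domain at the amino end recruits Trim28, which brings in the histone methyltransferase Setdb1 and silences chromatin, often at transposable elements. The fingers are usually encoded one after another in the last exon, and such genes often lie in clusters that arose by tandem duplication. A few genes of the same name family are of another kind: Zfp36 and its relatives carry CCCH fingers and bind AU-rich messenger RNA.

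The structure of the 271 genes was read from their longest annotated coding sequence in the mm10 genome. C2H2 fingers were found in 256, with a median of 9 fingers per gene, and 203 had fingers in the last exon. A sequence pattern of the KRAB domain was found in 105, and the pattern is strict and misses some KRAB genes. In all, 115 genes had at least 2 other Zfp genes within 250 kb. The chromosome with most members was chromosome 7, with 66, followed by chromosome 17 with 31. The 114 genes with too few cytosines differed in structure: 79 had the KRAB pattern and 80 were clustered. Their promoters also gave RRBS less to read, with a median of 3 CCGG sites within 1000 bp of a start against 8 in the 271 genes. What follows therefore describes the Zfp genes with CpG-rich promoters better than the clustered KRAB genes.

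Of the 16628 cytosines, 13637 (82.0%) lay in a promoter, defined as within 1000 bp of an annotated transcription start. Introns held 1100, last exons 1432, other exons 251, and the stretch between 1 and 2 kb upstream held 344. Introns and exons were counted outside promoters. Gene regions with at least 3 cytosines were 261 promoters, 48 introns and 31 last exons, and the level of a region is the mean over its cytosines.

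The stretches below show what the levels of these regions look like in sequence. Each is 150 bases of the mm10 reference genome, on the plus strand, which is also the strand of the gene, and capitals mark the CpGs with a measured cytosine. The last exon of Zfp619 (chr7:39536586-39536735) and that of Zfp771 (chr7:127254235-127254384) both encode C2H2 fingers. The 9 measured cytosines shown for Zfp619 had a mean level of 97.7%, and the 62 shown for Zfp771 had 0.665%. Of the promoters, the 23 cytosines shown for Zfp57 (chr17:37002826-37002975, -840 to -691 bp from the start) had 0.434%. The 27 shown for Zfp541 (chr7:16061664-16061813, the 150 bp before the start) had 33.1%, and the 3 shown for Zfp982 (chr4:147507031-147507180, at an alternative start) had 86.5%.
Zfp619 last exon: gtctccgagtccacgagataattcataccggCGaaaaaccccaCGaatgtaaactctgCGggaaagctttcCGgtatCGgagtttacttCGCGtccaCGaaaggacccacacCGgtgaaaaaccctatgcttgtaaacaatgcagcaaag
Zfp771 last exon: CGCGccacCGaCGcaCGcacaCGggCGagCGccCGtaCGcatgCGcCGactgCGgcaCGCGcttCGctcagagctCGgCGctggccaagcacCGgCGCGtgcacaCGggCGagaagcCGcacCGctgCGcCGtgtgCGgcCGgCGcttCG
Zfp57 promoter: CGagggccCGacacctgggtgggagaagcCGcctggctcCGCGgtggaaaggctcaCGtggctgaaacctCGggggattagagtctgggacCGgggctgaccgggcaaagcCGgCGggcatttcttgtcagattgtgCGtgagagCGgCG
Zfp541 promoter: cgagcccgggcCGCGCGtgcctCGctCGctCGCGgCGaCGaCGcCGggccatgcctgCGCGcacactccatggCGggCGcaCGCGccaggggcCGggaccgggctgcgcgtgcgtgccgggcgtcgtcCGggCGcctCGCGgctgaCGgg
Zfp982 promoter: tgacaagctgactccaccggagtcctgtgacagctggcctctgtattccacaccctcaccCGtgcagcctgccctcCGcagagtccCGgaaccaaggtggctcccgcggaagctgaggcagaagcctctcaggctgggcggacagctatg

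Promoters of the Zfp genes were almost without methylation in these brains, and their last exons were not. The median promoter stood at 0.790%, and 254 of 261 promoters were under 10%. Introns spread over the whole scale, with a median of 10.4%. Among last exons the median was 60.9%: 5 of 31 were under 10%, 9 lay between 10 and 50%, and 17 (54.8%) were over 50%. In other genes with at least 5 cytosines the medians were 0.879% for 12244 promoters, 20.96% for 4114 introns and 21.5% for 1066 last exons, of which 28.0% were over 50%. The medians are descriptions, since genes are not replicates. The median SD between the 12 animals was 0.630 percentage points for a promoter, 2.62 for an intron and 4.47 for a last exon.

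**Figure D1:**
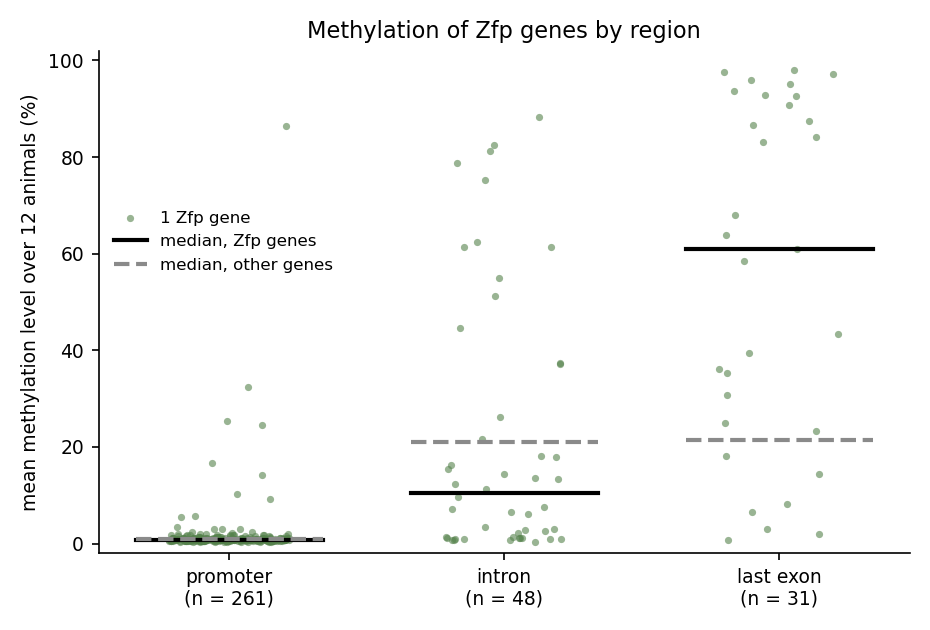
Each point is 1 Zfp gene region, placed by its mean methylation level over 12 animals (y axis, %) in 261 promoters, 48 introns and 31 last exons. Solid lines are the medians of the Zfp genes and dashed lines those of other genes: promoters crowd near 0 in both, and the last exons of the Zfp genes have a median of 60.9% against 21.5%.

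The contrast held within single genes. Both a promoter and a last exon were measured in 27 genes, with medians of 0.859% and 60.9%. The last exon was the higher region in all 12 animals in 23 of the 27 genes, and by more than 50 percentage points on average in 15. The exceptions were Zfp335 (11 of 12 animals), Zfp385a and Zfp36l2 (10 each) and Zfp771 (6). All 16 last-exon cytosines of Zfp335 also lie within another protein-coding gene or 2 kb upstream of it. In Zfp334, a KRAB gene with 14 fingers, the promoter stood at 0.786% and the last exon at 97.9%, a difference of 97.1 points (SD 1.35 over the animals). Its last exon ran from 97.3 to 98.6% in the Wt animals and from 95.4 to 100% in the Tg animals, so that the groups overlapped. By the median, CpGs were also denser in the promoters: the ratio of observed to expected CpGs was 0.574 in the 27 promoters and 0.416 in the 27 last exons. In some genes, such as Zfp771, Zfp467 and Zfp30, the last exon had the higher ratio.

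Around the start, the mean over genes in bins of 250 bp was 1.14% just upstream (160 Zfp genes) and 1.25% just downstream (203 genes), against 1.66% and 1.80% in other genes. It reached 2.03% between 250 and 500 bp into the gene. Between 2000 and 1750 bp upstream the mean of the Zfp genes was 1.11%, and that of other genes was 12.3%, but only 9 Zfp genes had a cytosine there. The bins beyond 1000 bp hold at most 15 Zfp genes each and do not give a trend.

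**Figure D2:**
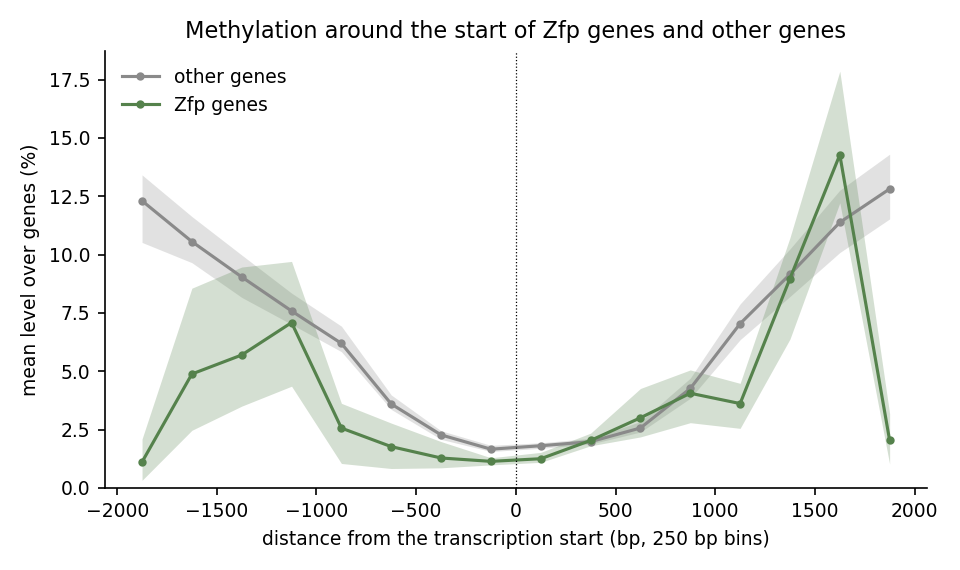
Mean methylation level over genes (y axis, %) by distance from the transcription start (x axis, 250 bp bins), in green for the Zfp genes and in grey for other genes. Bands span the lowest and the highest animal. The Zfp genes lie at 1.14% just upstream of the start against 1.66% in other genes, and the outer bins rest on few Zfp genes.

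The last exons formed a ladder from 0.642% to 97.9%. At the bottom were Zfp771 at 0.642% over 207 cytosines, Zfp36l2, which binds AU-rich messenger RNA, at 2.01%, Zfp697 at 3.10%, Zfp703, a transcriptional corepressor, at 6.44%, and Zfp335, which is needed in neural progenitors, at 8.16%. The value of Zfp335 rests only on cytosines shared with another protein-coding gene. At the top were Zfp334 at 97.9%, Zfp619 at 97.7%, Zfp618 at 97.1%, Zfp169 at 95.9% and Zfp11 at 95.1%. Zfp42, known as Rex1, a marker of pluripotent cells, stood at 90.7%, with the Wt animals at 84.7, 91.3, 93.5 and 96.7% and the Tg animals from 82.7 to 97.7% around a median of 90.4%. Zfp536, a repressor of neuronal differentiation, stood at 92.6%. Neighbours on the ladder mostly overlapped from animal to animal, as the plot of last exons shows.

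**Figure D3:**
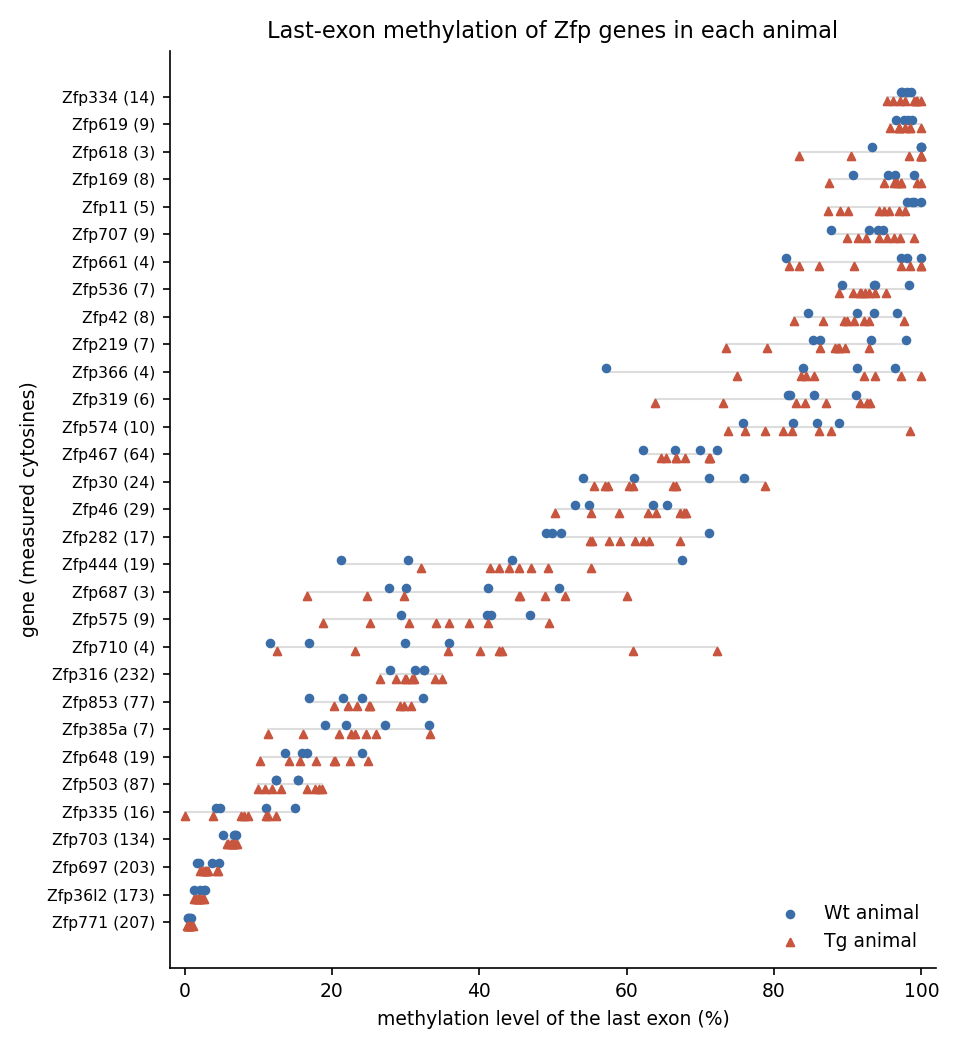
Last-exon methylation level (x axis, %) of 31 Zfp genes, with the number of measured cytosines in brackets. Circles are Wt animals and triangles Tg animals, and the grey line spans all 12. The genes run from 0.642% (Zfp771) to 97.9% (Zfp334), with the widest spread between animals in Zfp710 (SD 18.5 points).

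The 2 ends of the ladder were held by tight groups of animals. In Zfp771 the 4 Wt animals had 0.401, 0.521, 0.662 and 0.886%, and the Tg animals had 0.367% to 1.10% around a median of 0.578%. In Zfp619 the Wt animals had 96.5, 97.7, 98.1 and 98.8%, and the Tg animals 95.8% to 100% around 97.4%. Wt and Tg animals overlapped at both ends. Both exons encode C2H2 fingers, 8 in Zfp771 and 33 in Zfp619. The middle of the ladder was looser. In Zfp710, measured at 4 cytosines only, the Wt animals had 11.6, 16.8, 29.9 and 35.9%, and the Tg animals ran from 12.5% to 72.2% around 41.4%. The mean was 23.5% ± 11 (SD) in Wt and 41.3% ± 19 in Tg, and a two-sided exact permutation test over every choice of 4 of the 12 animals gave p = 0.113. Zfp687 (SD 13.2 points over 12 animals) and Zfp444 (11.9) followed.

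Several features went with the level of a last exon, as descriptions across genes that share libraries and depth. The 23 last exons that encode fingers had a median of 68.01%, and the 8 without had 18.8%, although the latter reached 97.1% in Zfp618. The 7 with the KRAB pattern had a median of 92.9%, against 41.4% for the other 24. The 6 in clusters had 37.1% and the 25 outside had 83.1%, so that clusters and the KRAB pattern did not go the same way. For comparison, 8 last exons of Zkscan, Zscan and Zbtb genes, which also encode C2H2 fingers, had a median of 58.9%. CpG density went the other way: the 13 last exons with an observed to expected CpG ratio of at least 0.5 had a median of 30.8%, and the 18 below had 83.6%. Spearman's rho between level and ratio was -0.364 and Pearson's r was -0.434 over the 31 exons, against -0.562 and -0.494 over 1066 other last exons. Zfp619 stood at 97.7% with a ratio above 0.5, so that dense CpGs did not always go with low methylation.

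Almost all of these cytosines were in coding sequence, 1375 of 1418, and 43 were untranslated. Single exons were not uniform. In Zfp316, a KRAB gene with 14 fingers on chromosome 5, 232 cytosines averaged 30.8% ± 2.43 (SD over 12 animals), but 36 of them were under 10% and 54 over 50%. A high stretch lay nearest the gene start and the low stretch about 1 kb further on, as the plot of single cytosines shows. At the far end the levels were mixed. At 17041 bp from the start the means were 86.4% in Wt and 83.7% in Tg, and at 16705 bp 7.86% and 14.1%. In Zfp467, 48 of 64 cytosines were over 50%. In the last exons of Zfp771 and Zfp36l2 all 207 and all 173 cytosines were under 10%. The mean over cytosines therefore depends on where the reads fall, and 4 last exons alone hold 815 of the 1418 cytosines.

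C2H2 fingers are joined by a conserved linker, and its codons can hold the CCGG that RRBS cuts. The search used the letters ACNGG, any base, then GANAA, on the coding strand of last-exon coding sequence. Of 260 Zfp genes with such sequence, 163 (62.7%) held at least 1 linker, and they held 984 linkers in all. A CCGG overlapped 117 of these, in 67 genes, which is 15.96% of the 733 CCGG sites in these exons. Among 18114 other genes 1.27% held a linker, and it overlapped 0.416% of their CCGG sites. Only 18 measured cytosines in 12 Zfp genes fell in a linker's CCGG, with a mean level of 45.8%, from 1.19% in Zfp771 to 99.5% in Zfp619.

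Of the 7 promoters over 10%, Zfp982 stood highest, at 86.5% over 3 cytosines. The Wt animals had 83.6, 86.6, 86.6 and 93.1%, and the Tg animals 79.7% to 92.2% around 85.4%. These cytosines sit at an alternative start, 14614 to 14763 bp into the gene, and its intron was also high, at 81.3%. Zfp541, a gene of meiotic germ cells, had 32.5% ± 3.97 (SD, 12 animals) over 42 cytosines packed from 138 bp before to 42 bp after the start. Of these, 37 lay between 10 and 50%, so most of the stretch was partly methylated. The Wt animals had 28.9, 31.0, 35.2 and 38.3%, and the Tg animals 24.8% to 35.7% around 33.8%, and the groups overlapped. In Zfp180, a gene with 12 fingers, all 15 cytosines lay between 18.6 and 29.4%, but the animals differed widely, from 9.83% in Tg male 1 to 41.8% in Tg female 4.

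Of the other 4 partly methylated promoters, those of Zfp462 and Zfp354a were mixtures of low and high cytosines. In Zfp385a and Zfp488 no cytosine was over 50%. In Zfp462, a neurodevelopmental gene with several starts, 16 of 30 cytosines were under 10% and 8 over 50%, and they reached 63786 bp from the main start. In Zfp354a 12 of 16 cytosines were under 10% and 3 over 50%, for a mean of 16.7%. Zfp385a, which encodes an RNA-binding protein, had 14.1%, with 4.33% in Tg female 1 and 24.1% in Tg female 3. Zfp488, a gene of oligodendrocytes, had 10.2%, from 4.98% to 18.3%, both in Wt animals. Introns with high levels were those of Zfp560 (88.3%), Zfp324 (82.4%), Zfp982 (81.3%), Zfp936 (78.9%) and Zfp777 (75.3%). Some introns spread widely between animals: Zfp366 on 3 cytosines had an SD of 17.2 points, with 0% in Tg female 4 and 73.3% in Tg female 3, and Zfp697 had 12.2 points.

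In the gene lists by role most promoters were also low, with Zfp541 (32.5%) and Zfp462 (25.3%) as exceptions. The imprint guards Zfp57 and Zfp445, which keep parental methylation marks in the early embryo, had promoters at 0.464% and 0.872%. The CCCH genes had 5.51% in Zfp36, 2.92% in Zfp36l1 and 1.19% in Zfp36l2. Zfp36 varied from 1.93% in Tg female 4 to 12.5% in Wt female 1. In 6 repressors of retroelements or of single loci (Zfp809, Zfp932, Zfp708, Zfp568, Zfp69 and Zfp819) the promoters lay between 0.502% (Zfp809, a silencer of retroviruses) and 3.50% (Zfp819). Of 6 genes of the germline or early embryo only Zfp42 (last exon) and Zfp541 (promoter, at 32.5%) had a region with at least 3 cytosines. The other 4 had no such region. Of 11 genes of neural development 10 were measured in 20 regions, where promoters were low apart from Zfp462: Zfp423, a gene of cerebellar and fat cell development, had 0.658%, Zfp521 1.18% and Zfp536 0.931%. The partners of the KRAB proteins (Trim28, Setdb1 and others, 21 of 22 measured) had a median promoter level of 0.779%, with 0.616% in Trim28 and 0.355% in Setdb1.

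The neural genes show how far regions of 1 gene can differ. In Zfp536 the promoter had 0.931% ± 0.224 (SD, 12 animals) over 181 cytosines, the intron 9.61% ± 2.35 and the last exon 92.6% ± 2.59. In Zfp335 they had 1.08%, 21.7% and 8.16%, so that the intron was the highest. In its last exon all 16 cytosines, and in its intron 3 of 6, also lie within another protein-coding gene or 2 kb upstream. In Zfp503, a gene of striatal development, the promoter had 5.79%, the intron 1.09% and the last exon 14.4%, so that the intron was the lowest. Zfp703 had 1.07% in the promoter and 6.44% in the last exon. In Zfp423, which had 398 cytosines, the promoter had 0.658% ± 0.158 and the intron 18.1% ± 1.74. No order of the 3 kinds of region held in all of them.

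The first comparison of the design asks whether methylation differs between Tg and Wt mice. Averaged over all cytosines of a kind, no difference by genotype beyond the spread between animals was found in the Zfp genes. Promoter cytosines had 1.15% ± 0.06 (SD) in 4 Wt animals and 1.11% ± 0.05 in 8 Tg animals, a difference of -0.0415 points with an exact permutation p = 0.214. Intron cytosines had 13.5% ± 1.25 and 13.8% ± 0.70, a difference of 0.273 points with an exact permutation p = 0.612. Last-exon cytosines had 22.7% ± 1.71 and 22.9% ± 0.53, a difference of 0.223 points with an exact permutation p = 0.699. The Wt animals were the wider group in introns and last exons, with Wt female 1 the highest and the library labelled Wt male the lowest of all 12. Other genes had the same highest and lowest animal in their last exons (15.8% and 12.9%). Without the library labelled Wt male the intron and last-exon differences became -0.0711 and -0.441 points.

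Gene regions were tested with a logistic model of methylated and unmethylated reads on genotype and sex, in which the deviance was divided by a dispersion so that animals of a group may differ by more than counting error. Over all 18175 regions of all genes 1 was called at a Benjamini-Hochberg adjusted p under 0.1, and it was not a Zfp gene. Among the 340 Zfp regions 0 were called, with a smallest adjusted p of 0.762 from the overdispersion model. An unadjusted p under 0.05 was reached by 17 regions (7 higher and 10 lower in Tg), or 5%, against 5.9% of all regions. limma on the same regions also called 0, with 17 Zfp regions (5%) at an unadjusted p under 0.05, against 4.09% of all regions. A plain binomial model, which counts every read of an animal as an independent draw, called 164 of 340 (48.2%) against 48.6% of all regions. The ranges of Wt and Tg animals did not overlap in 2 regions (0.588%), against 0.264% of all regions.

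Those 2 regions were the last exon of Zfp11 and the promoter of Zfp606. They are given because their ranges do not overlap, so small unadjusted permutation p-values were selected for. In Zfp11, a gene with 21 fingers, the Wt animals had 98.0, 98.7, 98.99 and 100% and the Tg animals 87.3% to 97.8% around 94.6%. The mean was 98.9% ± 0.816 (SD) in Wt and 93.2% ± 3.95 in Tg, a difference of -5.69 points, with an exact permutation p = 0.0182 and an adjusted p of 0.777 from the overdispersion model over all regions. Only 5 cytosines stand behind these values, with 58 to 162 counts per animal summed over them. A read can be counted at more than 1 of them. In Zfp606 the promoter had 0.109, 0.361, 0.406 and 0.488% in Wt and 0.504% to 3.03% around 0.605% in Tg, with means of 0.341% and 1.04% and an exact permutation p = 0.0929. The highest Wt animal and the lowest Tg animal are close in Zfp606, at 0.488% and 0.504%.

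The 5 regions with the smallest unadjusted p were Zfp11 and 4 promoters, all lower in Tg. The promoter of Zfp37 had 0.514, 0.977, 2.48 and 2.71% in Wt and 0.433% to 1.25% around 0.642% in Tg. That of Zfp2 had 0.511, 0.652, 1.72 and 2.34% in Wt and 0% to 0.844% around 0.306% in Tg. That of Zfp213 had 0.677, 0.736, 1.67 and 2.44% in Wt and 0% to 0.709% around 0.386% in Tg. These 3 promoters stayed under 3% in every animal, and the Wt and Tg ranges overlapped in each. The promoter of Zfp867 had 0.210, 1.24, 2.25 and 3.73% in Wt. In 5 of the 8 Tg animals it was at 0%, and Tg male 3 reached 2.17%. The unadjusted p-values of the overdispersion model ran from 0.0081 (Zfp37) to 0.0176 (Zfp213), and the adjusted ones from 0.762 to 0.811. The 20 neural regions held 1 with an unadjusted p under 0.05, the intron of Zfp521, a gene of neural progenitors, at 5.58% ± 1.27 in Wt and 7.02% ± 1.08 in Tg (adjusted p = 0.811, overdispersion model). Of the 25 regions of the KRAB partners 1 reached an unadjusted p under 0.05, the promoter of Pphln1. It had 1.46% ± 1.01 in Wt and 1.41% ± 0.475 in Tg, almost equal means. Its exact permutation p was 0.927 and its adjusted p 0.811 (overdispersion model). Over all regions 5.9% had an unadjusted p under 0.05, a share that 1 of 20 and 1 of 25 do not exceed.

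At single cytosines the binomial model with a minimum difference of 10 points called 186 of 16628 in the Zfp genes, 113 higher and 73 lower in Tg. That is 1.12%, against 1.72% of all cytosines tested. By region it called 25 promoter cytosines (0.183%, against 0.229% of promoter cytosines of all genes), 47 in introns (4.27% against 4.8%) and 90 in last exons (6.28% against 4.57%). The model that allows for overdispersion called 0 of the 16628, with a smallest adjusted p of 0.422. At an unadjusted p under 0.05 it gave 1842 Zfp cytosines (11.1%) and 10.9% of all cytosines. The dispersion was above 1 in 182 of the 186 called cytosines, with a median of 3.78, that is, the animals of a group differed by more than the read counts allow for. The called cytosines had a median pooled level of 39.4%, against 0.712% for all Zfp cytosines. Without the library labelled Wt male 155 (0.932%, all cytosines 1.35%) were called, 64 higher and 91 lower in Tg. In the 7 animals labelled female 227 (1.37%, all 2.13%) were called, 109 higher and 118 lower. The majority direction turned in both, and the direction among called cytosines of all genes is not given here. Of the 186, 40 were called with all animals and without each animal in turn. The matching share for called cytosines of all genes is not given here.

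The opposite strand gives a check that the model did not use. The partner cytosine of the same CpG was tested for 83 of the 186. The partner had the same sign in 41 of the 83 and the opposite sign in the rest. Its shift reached 10 points with that sign in 10, and 6 partners were also called. The same counts for called cytosines of all genes are not given here, so these cannot be read as particular to the Zfp genes. Called cytosines gathered in genes with many partly methylated cytosines: Zfp316 held 30 (12 higher and 18 lower in Tg), Zfp853 14 (12 higher and 2 lower), Zfp423 11 (6 and 5) and Zfp444 10. In Zfp444 all 10 were higher in Tg, in Zfp521 all 8 and in Zfp407 all 5, and in Zfp541 3 were higher and 6 lower. Neighbouring cytosines of a strand can lie on the same reads, so calls within a gene are not separate observations. In Zfp853 most calls higher in Tg were minus-strand cytosines between 4893 and 5010 bp from the start. Methylated counts of 1 to 8 reads were even in 86.8 to 89.4% of Zfp cytosines, depending on the animal, and in 87.6 to 89.6% of all cytosines. The part of even counts in these calls was tested only by halving all counts, after the data were seen, which left 19 Zfp cytosines (0.114%) against 0.137% of all cytosines.

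**Figure D4:**
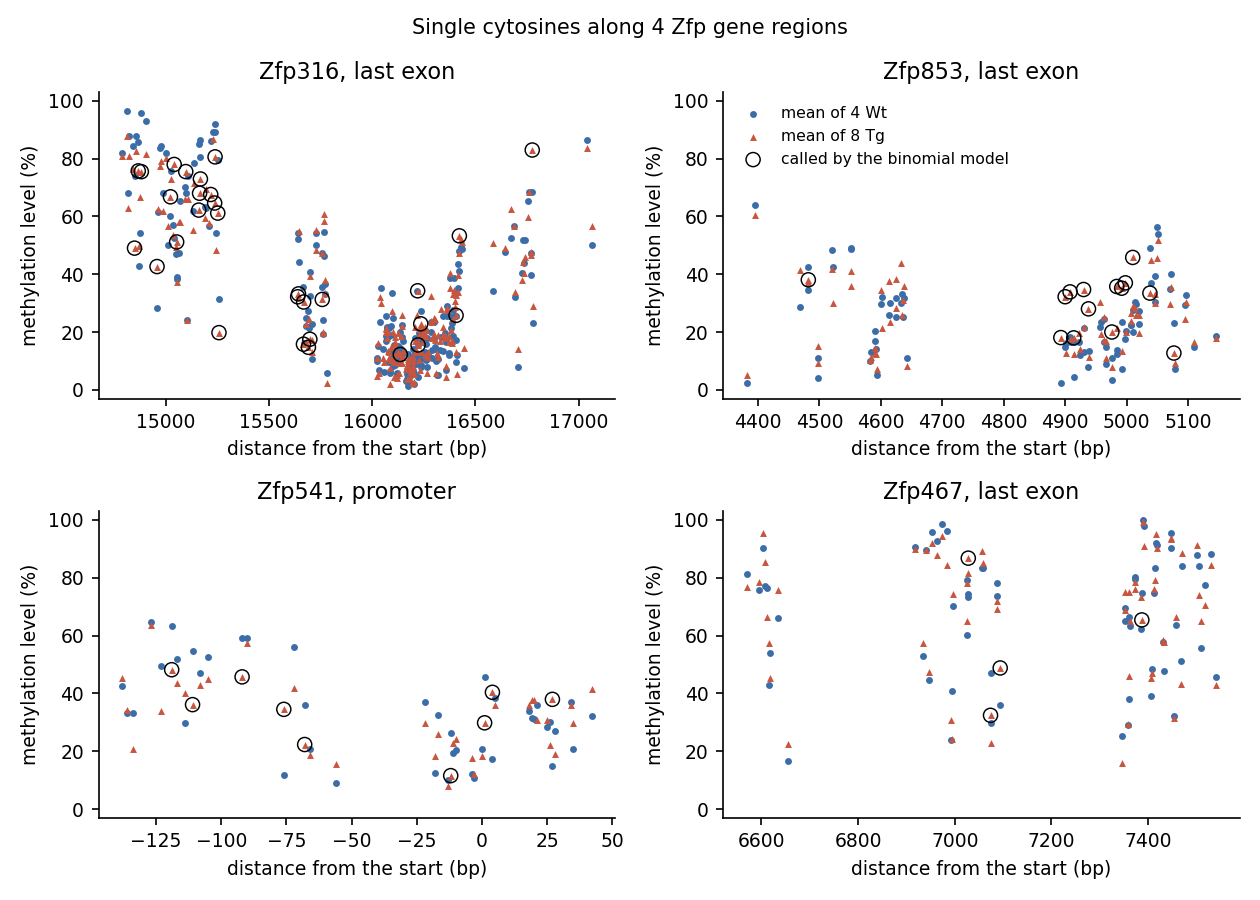
Methylation level (y axis, %) of single cytosines by distance from the transcription start (x axis, bp) in 4 Zfp gene regions, as the mean of 4 Wt animals (circles) and of 8 Tg animals (triangles). Open rings mark cytosines called by the binomial model: Zfp316 holds 30 (12 higher and 18 lower in Tg) and Zfp853 holds 14 (12 higher and 2 lower). Neighbouring cytosines can lie on the same reads and are not separate observations.

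Of the called cytosines, 10 were followed in every animal, the 10 genes with the smallest p-values of the overdispersion model. They were picked for a difference by genotype in these same animals. Small unadjusted permutation p-values were thereby selected for, and those given for these cytosines add no separate support. The largest read-weighted differences among the 10 were in Zfp853 and Zfp423. At chr5:143287872, in the last exon of Zfp853, the Wt animals had 0, 5.88, 6.78 and 16.7% and the Tg animals 16.7% to 62.5% around 30.6%. The means were 7.33% ± 6.91 and 35.2% ± 16, with an exact permutation p = 0.0121. The groups touched at 16.7%. On the opposite strand of the same CpG the read-weighted level was 9.18 points lower in Tg. At chr8:87888126, in an intron of Zfp423, the Wt animals had 46.7, 57.1, 63.0 and 78.6% and the Tg animals 66.7% to 100% around 80.4%. The means were 61.3% ± 13.3 and 83.0% ± 12.3, with an exact permutation p = 0.0242. The groups overlapped, and the opposite strand differed by -1.55 points. The surroundings of both are shown along the minus strand, which is the strand of both genes, with the called CpG in capitals, in chr5:143287831-143287912 and chr8:87888085-87888166 of mm10.
Zfp853 last exon: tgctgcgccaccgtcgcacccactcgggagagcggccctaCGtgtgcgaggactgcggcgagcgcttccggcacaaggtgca
Zfp423 intron: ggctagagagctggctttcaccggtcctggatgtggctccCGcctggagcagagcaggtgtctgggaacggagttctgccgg

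Of the other 8, 5 are given next. In the promoter of Zfp541 (chr7:16061738, inside the printed stretch) the Wt animals had 4.26, 5.56, 10.5 and 26.7% and the Tg animals 14.3% to 75% around 29.02%. The means were 11.8% and 34.5%, with an exact permutation p = 0.0283. The groups overlapped, since Wt female 3 exceeded Tg male 1. In an internal exon of Zfp444 (chr7:6184156) the Wt animals had 0 of 95 reads methylated, which allows a level of up to 3.16%, or 6.32% with all counts halved. Among the Tg animals 2 were also at 0% and Tg male 1 reached 57.1%, with a mean of 18.8%. In the last exon of Zfp366 (chr13:99246212) all 8 Tg animals were at 100%, and the Wt mean of 89.5% includes the library labelled Wt male at 66.7%. In Zfp316 (chr5:143254264) the Wt mean of 47.3% likewise includes the library labelled Wt male at 77.3%, against 31.3% in Tg, and the opposite strand differed by 13.5 points the other way. In the last exon of Zfp707 (chr15:75974978) all Wt animals were at 100% and the Tg mean was 90.4%.

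In the remaining 3 the Tg mean was higher. The last exon of Zfp697 (chr3:98428410) had 6.76% ± 6.16 in Wt and 15.8% ± 8.07 in Tg. The last exon of Zfp467 (chr6:48438731) had 36.0% ± 15.5 in Wt and 48.8% ± 16.4 in Tg. An internal exon of Zfp521 had 28.8% ± 19.9 in Wt and 45.9% ± 10.03 in Tg. The ranges of Wt and Tg overlapped in all 10. The adjusted p of the overdispersion model lay between 0.422 and 0.439 for these 10. Without the library labelled Wt male the binomial call was lost in 6 of the 10, with read-weighted differences of 3.77 points in Zfp366, -6.19 in Zfp316, 18.6 in Zfp444, 8.70 in Zfp697, 6.59 in Zfp467 and 13.4 in Zfp521. The call in Zfp697 was also lost without Wt female 3 (9.71 points) or Tg female 1 (6.52 points). The call in Zfp707 was lost without Tg female 1 (-7.62 points), Tg female 4 or Tg male 3 (-10 points each). The calls in Zfp853, Zfp423 and Zfp541 were kept without any 1 animal.

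**Figure D5:**
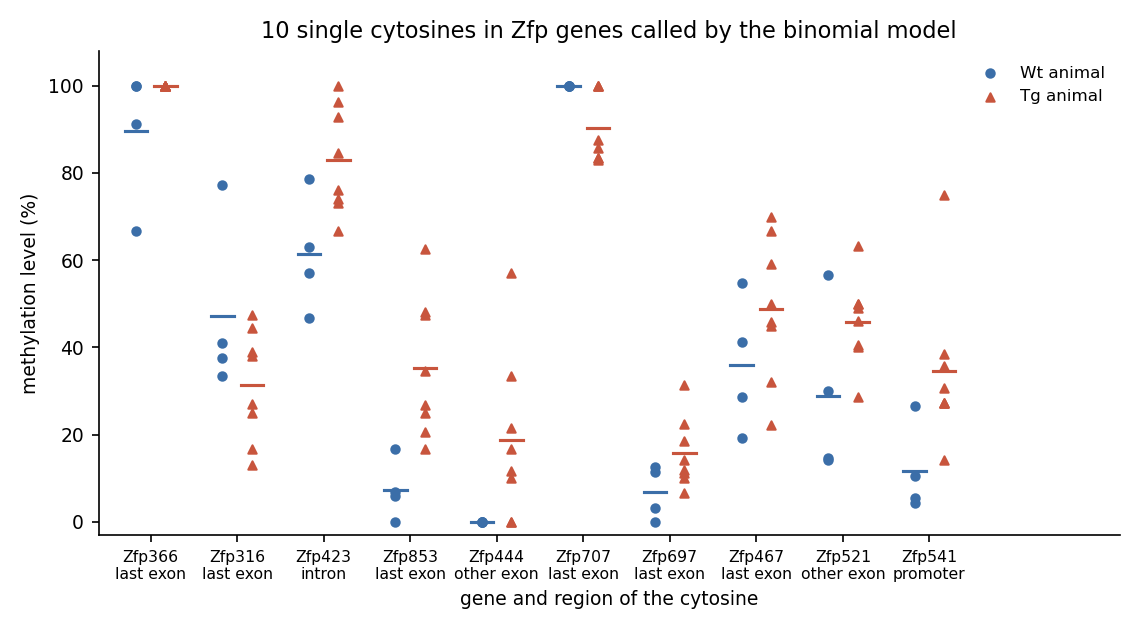
Methylation level (y axis, %) of 10 single cytosines called by the binomial model, by gene and region (x axis). Circles are Wt animals, triangles Tg animals and bars the group means. The Wt and Tg ranges touch or overlap in all 10. In Zfp853 they meet at 16.7%.

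A stricter description asks for cytosines whose Wt and Tg ranges do not overlap. There were 11 in the Zfp genes, or 0.0662%, against 0.0709% of all cytosines. Of these, 10 were lower in Tg, and 9 of them had Wt means of 1.93% to 6.22% and Tg means under 0.3%. The direction among all such cytosines is not given here. For levels this low, every animal of the higher group must have methylated reads. The smaller Wt group meets this more easily, so the direction cannot be read as a loss in Tg. By another criterion, an unadjusted overdispersion p under 0.05, 65291 of all cytosines were lower and 41751 higher in Tg. Of the Zfp cytosines 1182 were lower and 660 higher by that criterion. At the promoter cytosine of Zfp59 (chr7:27838598) the Wt animals had 3.17% to 9.09% and the Tg animals 0 of 411 reads, which allows a level of up to 0.730%, or 1.46% with all counts halved. This bound covers counting error only, since RRBS reads are not independent molecules. In the last exon of Zfp316 both directions occurred: 1 cytosine (chr5:143253787) had 7.90% ± 3.14 in Wt and 22.9% ± 4.64 in Tg, and another (chr5:143254324) had 40.9% ± 10.1 and 17.5% ± 9.60. The overdispersion model gave all 11 an adjusted p of at least 0.422.

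Sex was compared within the Tg animals, 4 females and 4 males, since the Wt group has 1 library labelled male. Among the 340 Zfp regions 0 were called by the overdispersion model, with a smallest adjusted p of 0.889, and 0 of all 18175. An unadjusted p under 0.05 was reached by 16 Zfp regions (4.71%, against 5.27% of all regions). The binomial model called 161 (47.4%, against 46.9%). The last exon of Zfp771 had 0.641, 0.789, 0.916 and 1.10% in females and 0.367, 0.446, 0.459 and 0.515% in males. These groups did not overlap, with means of 0.861% ± 0.193 and 0.447% ± 0.061, both under 1.2% in every animal. This region, like the promoters of Zfp786 and Zfp251 below, was named for its small unadjusted p for sex. A separation of the sexes was thereby selected for, and the share of all regions that separate by sex is not given here. The promoter of Zfp786 had 0 methylated of 2582 counts in the 4 females, summed over 17 cytosines, and 0.538% ± 0.487 in males. Taken as independent, the 2582 counts allow up to 0.116% in females (0.232% with all counts halved). That bound is too tight, since 1 read can be counted at several of the 17 cytosines. In the promoter of Zfp251 the means were 1.78% and 1.80%, so that its small unadjusted p of 0.0143 goes with almost equal means over animals.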

How the data were processed

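The authors aligned the RRBS reads to mm10 with Bismark, called methylation and made methylKit files, per the labels, and versions are not given in the sources used here. The deposited values are read counts per CpG cytosine and strand (coverage, methylated C, converted T), 1 file per animal, with coverage of at least 10. In 1 line of the files C and T did not add up to the coverage.

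Cytosines on the 19 autosomes and X that had 10 reads or more in every library were joined and assigned to genes with GENCODE release M21 (basic). Fingers and the KRAB pattern were found by translating each gene's longest coding sequence from the genome. Methylated and unmethylated counts were fitted with genotype and sex (logistic model, Python 3.11.15, numpy 2.4.6, scipy 1.17.1), either binomial or with a dispersion per cytosine or region, and tested on simulated data. The Benjamini-Hochberg method, over all cytosines or regions, took the place of methylKit's q-value. A call needed an adjusted p under 0.1 and, at cytosines, 10 points. limma 3.58.1 (R 4.3.3) was an alternative. Group means of Wt and Tg levels got a two-sided exact permutation test over every choice of 4 of the 12 animals (smallest possible p 0.00202).

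Named were the genes of the role lists, in each kind of region the 5 highest and the 3 with the largest SD, the 5 regions with the smallest overdispersion p for genotype and 3 for sex, and 1 called cytosine in each of the 10 genes with the smallest such p. Zfp606, Zfp59, the low last exons and the promoters over 10% were named after their values were seen. The members and lists were chosen with earlier results of these data known. P-values of the overdispersion model, limma and the permutation tests measure only the spread between these animals. Those of the binomial model measure counting error of reads and leave that spread out. The tissue was not checked against cell type markers.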

Additional observations from a re-analysis of the deposited data

Results flagged for a closer look

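Dixon's test used 80 groups of 4 Wt or 8 Tg animals or, in regions named for sex, 4 Tg animals of 1 sex. The groups covered named regions, called cytosines and the mean promoter, intron and last-exon levels of the Zfp genes. In 7 groups 1 animal was far from the others. Chance gives about 1 in 20 groups, or 4 of 80, in groups not chosen for their spread, but the Zfp462 promoter and the introns of Zfp697 and Zfp407 were named for a large SD between animals, so the 7 cannot be read against that rate. In the promoter of Zfp462 Tg female 1 had 37.3%, and the other Tg animals had 19.7 to 26.7%. In the intron of Zfp697 Tg female 4 had 16.7%, against 35.9 to 53.2%, and it rests on 3 cytosines. In the intron of Zfp407 Wt female 1 had 71.8%, against 44.0 to 46.6% in the other Wt animals, over 22 cytosines. In the last exon of Zfp618 Wt female 1 had 93.3%, where the other Wt animals had 100%. In the last exon of Zfp169 Tg male 1 had 87.5%, against 94.9 to 100%. In the promoter of Zfp867 Tg male 3 had 2.17%, against 0 to 0.255%. At the called cytosine of Zfp541 Tg female 4, the library with the lowest coverage, had 75%, against 14.3 to 38.5%. Tg female 4 and Wt female 1 each account for 2 of the 7.

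Whether a difference between Wt and Tg depends on sex was not tested, since the Wt group has only 1 library labelled male.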

How the results depend on the processing

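The count of 186 Zfp cytosines called for genotype fell to 0 with the overdispersion model, to 12 of 6482 (0.185%, all cytosines 0.474%) at a minimum of 20 reads, to 7 (0.0421%, all 0.0775%) at a minimum difference of 25 points and, with all counts halved (added after the data were seen), to 19 (0.114%, all 0.137%). Leaving out 1 animal gave 155 to 276 calls. The fewest came without the library labelled Wt male (0.932%, all 1.35%) and the most when Wt female 1 was dropped (1.66%, all 2.24%). The count was 198 (1.19%, all 1.94%) without the sex term and 227 (1.37%, all 2.13%) in the females alone. With both strands summed it was 131 of 10860 (1.21%, all 2.07%), where the share was 1.12% at first. The binomial model called 164 Zfp regions for genotype and 161 for sex in place of 0. Leaving out any 1 animal gave 0 to 0 in both. The mean Tg minus Wt difference of promoters was -0.0674 to -0.0221 points without 1 animal. That of introns was -0.0711 (without the library labelled Wt male, reversed) to 0.871. That of last exons was -0.441 (without the library labelled Wt male, reversed) to 0.948, and it reversed in the females alone (-0.541) and at 20 reads (-0.0684). Of 297 repeats of named results 243 kept direction and side of the threshold, 40 lost the call, 8 gained it, and 6 reversed. These were the Zfp213 promoter at 20 reads (0.0999 points) and the sex difference of the Zfp251 promoter without Tg female 1, 2 or 4 (-0.346, -0.0601, -0.115) and without Tg male 3 or 4 (-0.136, -0.0508), over a range of -0.346 to 0.636 without 1 animal. No paired analysis was possible because the labels give no replicate numbers and record order pairs no animals. Levels near 0 in promoters are limited by depth: a group with 0 methylated of 411 reads allows up to 0.730%, or 1.46% with all counts halved.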

Other observations

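Zfp genes on the X chromosome were outside the autosomal comparisons and are given as values. Of 9 such genes, 5 had at least 3 promoter cytosines: Zfp185, Zfp275, Zfp280c, Zfp449 and Zfp711. In the Tg animals the promoter of Zfp185 had 21.5% ± 4.12 (SD) in 4 females and 0.918% ± 0.372 in 4 males. Zfp275 had 15.5% ± 6.21 and 0.316% ± 0.238, and Zfp280c had 21.8% ± 3.99 and 2.40% ± 0.812. Zfp449 had 20.3% ± 3.69 and 0.198% ± 0.397, and Zfp711 had 19.7% ± 10.6 and 1.39% ± 2.78. Females were above males without overlap in each of these 5 promoters, with an exact permutation p of 0.0286, the smallest that 70 ways to choose 4 of 8 animals can give. Each of the 5 values stays at 0.0286 after Benjamini-Hochberg adjustment over the 5. The library labelled Wt male had 17.5, 18.9, 20.6, 14.6 and 15.4% in the same order of genes, above every Tg male in each. On the autosomes the Zfp promoters had a median of 0.790%.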
